A study of Homo sapiens with 12 samples.

Results

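The type I keratins examined here are 10 genes, KRT10, KRT13, KRT14, KRT15, KRT16, KRT17, KRT18, KRT19, KRT20 and KRT23, taken by symbol from a table of counts for 61044 gene identifiers. They were followed in SCC-15, an established cell line of human squamous cell carcinoma of the mouth. The 4 groups were cells with a negative-control short hairpin RNA (NC) and cells in which FMOD was targeted by shRNA1, by shRNA2 or by shRNA3, all harvested after 48 hours of culture in the same medium with serum. FMOD encodes the matrix proteoglycan fibromodulin, and the question behind the design was what its depletion does to gene expression. Each group had 3 libraries (n = 3), and the labels do not say whether these came from separate cultures or clones, so p-values measure only the spread between these libraries, which may be technical.

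Keratins are the intermediate filament proteins of epithelial cells. Each filament is built from pairs of 1 acidic type I and 1 basic type II protein, so the level of a type I gene is usually read beside that of its type II partners. In stratified epithelia the basal layer is known for KRT5 with KRT14 and KRT15, the suprabasal layers for KRT1 with KRT10 in cornified skin and for KRT4 with KRT13 in the moist lining of the mouth, and wounded or hyperproliferative epithelium for KRT6 with KRT16 and KRT17. Simple, single-layered epithelia are known for KRT8 with KRT18 and for KRT7 with KRT19, and KRT20 is known from intestinal epithelium, urothelium and Merkel cells.

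Library totals lay between 17286934 and 19567192 counts, so that 3 counts, the limit that a count of 0 allows, corresponded to 0.145 to 0.222 CPM. CPM, the usual scaling of counts to library size, was computed with TMM, a factor per library that lines up the bulk of genes, and intervals and limits from counts cover counting error only. FMOD was at 2, 2 and 3 counts in the NC libraries and at 0 in all 9 hairpin libraries, both at or under that limit, so no fold change is given. In shRNA3, libraries 1 and 2 stood apart from library 3: their TMM factors were 0.771 and 0.795 against 1.06, and their log2 CPM over all tested genes correlated with library 3 at r = 0.911 and 0.908, where the other replicate pairs reached 0.977 to 0.989. Results of the type I keratins that rest on shRNA3 are therefore given with library 3 as its only library as well, and so are those of the keratin, filament and transcription factor genes named from the other lists where this moved a called fold by over 1.5 times or changed the call. In that fit shRNA3 is assumed to vary like the other groups.

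The genes lie in 2 places on GRCh38. In GENCODE release 29, 9 of the 10 lie on the minus strand of chromosome 17 between 40818117 and 41624842, a stretch of 806.7 kb, and KRT18 lies on the plus strand of chromosome 12 from 52948871 to 52952901. The genes with the largest changes, KRT13 (ENSG00000171401, chromosome 17, 41500981 to 41505705) and KRT19 (ENSG00000171345, chromosome 17, 41523617 to 41528308), flank KRT15 (41513743 to 41522529). KRT14 spans 41582279 to 41586921, KRT16 spans 41609778 to 41615899 and KRT17 spans 41619441 to 41624842. The annotation places genes of the opposite strand over KRT10 (TMEM99), KRT13 (AC019349.1), KRT18 (KRT8) and KRT23 (AC004231.1). Whether strand was used in the counting is not given in the sources used here, so reads from such pairs may not be told apart. The opposite-strand gene over KRT10, listed in the table as KRT10-AS1, had mean levels of 6.36, 7.34, 13.2 and 11.5 CPM in NC, shRNA1, shRNA2 and shRNA3.

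How far reads of these genes can be told apart depends on their sequences. The coding stretch at the start of the rod domain, the coiled-coil core in which the type I and type II chains pair, is shown because it lines up without gaps in all members. Whether it is their most alike part was not tested, and some of the longest identical runs given below lie outside it. Each line gives 90 bases (30 codons), 5′ to 3′ on the coding strand, from the GENCODE release 29 transcripts, and capitals mark the bases that differ from KRT14.
KRT14: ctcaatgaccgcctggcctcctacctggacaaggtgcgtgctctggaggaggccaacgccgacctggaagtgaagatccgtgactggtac
KRT16: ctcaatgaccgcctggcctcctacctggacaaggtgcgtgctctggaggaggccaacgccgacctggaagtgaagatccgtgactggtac
KRT17: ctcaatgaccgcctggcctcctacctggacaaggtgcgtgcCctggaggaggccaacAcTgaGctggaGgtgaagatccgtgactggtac
KRT15: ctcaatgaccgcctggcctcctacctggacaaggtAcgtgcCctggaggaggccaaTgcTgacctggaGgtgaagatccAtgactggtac
KRT13: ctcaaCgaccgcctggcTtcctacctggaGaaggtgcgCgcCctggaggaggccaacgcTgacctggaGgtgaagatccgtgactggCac
KRT19: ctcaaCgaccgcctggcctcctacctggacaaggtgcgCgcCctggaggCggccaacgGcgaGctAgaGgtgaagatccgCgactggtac
KRT23: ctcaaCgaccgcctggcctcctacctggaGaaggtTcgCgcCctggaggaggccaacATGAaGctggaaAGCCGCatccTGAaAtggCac
KRT10: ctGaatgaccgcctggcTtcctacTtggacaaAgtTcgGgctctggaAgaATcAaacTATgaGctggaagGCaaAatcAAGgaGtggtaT
KRT20: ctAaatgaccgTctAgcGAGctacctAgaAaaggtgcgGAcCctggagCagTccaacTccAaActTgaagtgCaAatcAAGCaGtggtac
KRT18: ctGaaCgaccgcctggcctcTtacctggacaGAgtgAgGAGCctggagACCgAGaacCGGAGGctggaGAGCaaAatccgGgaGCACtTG
KRT16 had 0 differences from KRT14 over this stretch, against 5 for KRT17, 6 for KRT15, 8 for KRT13 and 9 for KRT19. KRT23, KRT10 and KRT20 had 21, 22 and 24 differences, and KRT18, which lies on the other chromosome, had 33. The longest identical run between coding sequences of members was 158 bases, between KRT14 and KRT16. It was 66 bases between KRT13 and KRT15, 61 between KRT16 and KRT17 and 59 between KRT14 and KRT17.

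Over whole transcripts, the share of 50-base stretches that also occur in a transcript of another gene, on either strand, was 47.6% for KRT18, 23.8% for KRT14, 22.0% for KRT16, 18.4% for KRT13 and 16.0% for KRT17. It was 4.95% for KRT23, 1.79% for KRT19, 0.434% for KRT10, 0.328% for KRT15 and 0 for KRT20. For KRT18 the largest part was the overlapping KRT8 (21.5%). For KRT13 nearly all of the share was the overlapping AC019349.1 (17.3%), and for KRT14 the largest part was KRT16 (11.2%). With 100-base stretches the shares were 16.6% for KRT18, 14.8% for KRT13, 7.18% for KRT16 and 5.95% for KRT14. All of that KRT18 share was KRT8. The read length is not given in the sources used here. The deposited counts were not whole in 12 of 12 libraries for KRT18, 9 for KRT14, 8 for KRT16, 6 for KRT15 and 2 for KRT13, and were whole in all 12 for KRT10, KRT17, KRT19, KRT20 and KRT23. KRT18, KRT14 and KRT16 ranked highest by both measures, and KRT10, KRT19 and KRT20 were low in the first and whole throughout. The measures parted for other members. KRT15 shared few stretches but was not whole in 6 libraries. KRT17 shared 16.0% of its 50-base stretches but was whole throughout, and KRT13 shared 18.4% but was not whole in only 2 libraries.

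The NC cells held mostly KRT18 and KRT17, and each hairpin group added KRT13 and KRT19. The 10 genes together summed to 902 to 975 CPM in NC, 2390 to 2960 CPM in shRNA1, 4050 to 4340 CPM in shRNA2 and 3570 to 4540 CPM in shRNA3. Every hairpin library was above every NC library. Of this sum KRT18 held 59.0% to 62.1% in NC, 39.1% to 45.3% in shRNA1, 25.6% to 26.2% in shRNA2 and 21.6% to 44.6% in shRNA3. KRT17 held 31.1% to 35.4% in NC and between 13.5% and 28.3% in the hairpin libraries. KRT13 went from 0.00562% to 0.0207% of the sum in NC to 15.8% to 17.5%, 34.6% to 35.1% and 19.7% to 33.3% in shRNA1, shRNA2 and shRNA3. KRT19 went from 0.0608% to 0.112% in NC to 10.3% to 10.9%, 22.7% to 22.8% and 10.5% to 16.4%.

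**Figure D1:**
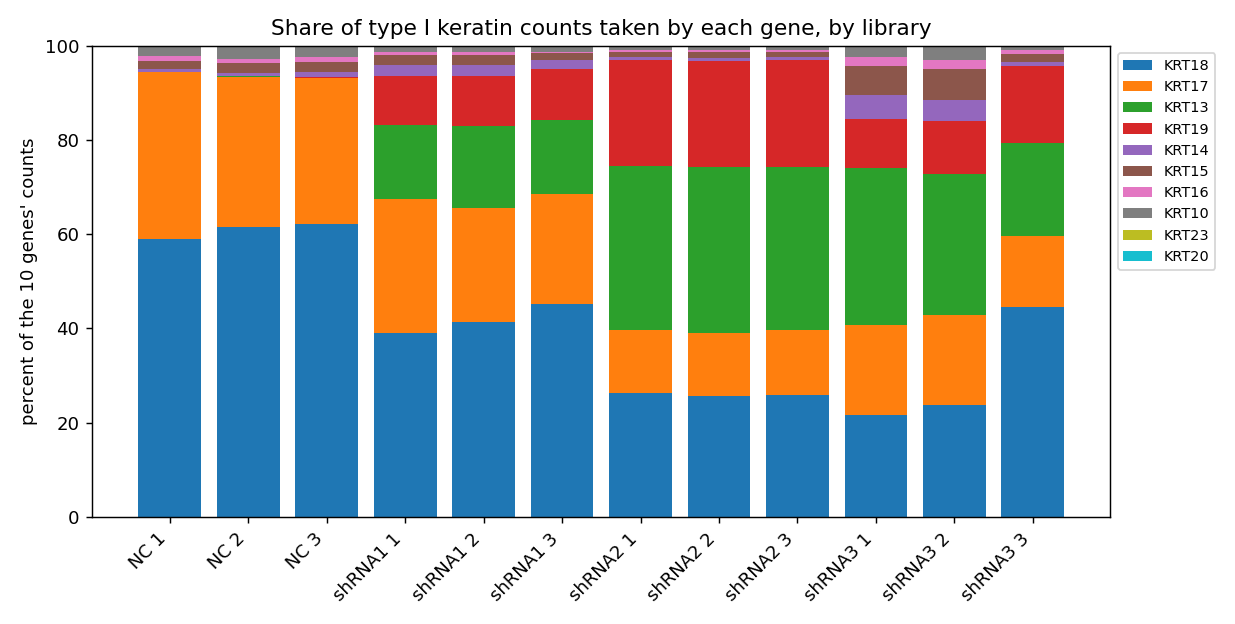
Share of the summed counts of the 10 type I keratin genes (vertical axis, percent) taken by each gene in each of the 12 libraries (horizontal axis). KRT18 and KRT17 filled most of each NC bar, and KRT13 and KRT19, under 1% together in NC, took a visible part of every hairpin bar, with shRNA3 library 3 unlike shRNA3 libraries 1 and 2.

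Levels of different genes were compared per kilobase of coding sequence. In NC the order was KRT18 (448 CPM per kb ± 15.2, SD, n = 3), KRT17 (241 ± 24.8), KRT15 (13.3 ± 1.75), KRT10 (12.6 ± 1.78), KRT16 (7.16 ± 0.898), KRT14 (5.36 ± 1.23) and KRT19 (0.698 ± 0.184), then KRT23, KRT13 and KRT20. The libraries of KRT15 and KRT10 overlapped, as did those of KRT16 and KRT14 and those of the last 3. In shRNA1 the order was KRT18 (845 CPM per kb), KRT17 (500), KRT13 (308) and KRT19 (230), followed by KRT14 (39.2) and KRT15 (34.8), whose libraries overlapped. In shRNA2 KRT13 came first at 1060 CPM per kb, above KRT18 (844) and KRT19 (795), which overlapped, and KRT17 (441). In shRNA3 KRT18 (936), KRT13 (858), KRT17 (578) and KRT19 (432) each overlapped with the next. By the length of all annotated exons KRT15 ranked lower, at place 6 in NC and 7 in each hairpin group, because its annotated exons cover 7069 bases. By that length KRT19 (408 CPM per kb) lay above KRT18 (338) in shRNA2 without overlap, and in shRNA3 KRT13 (405) came before KRT18 (375).

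**Figure D2:**
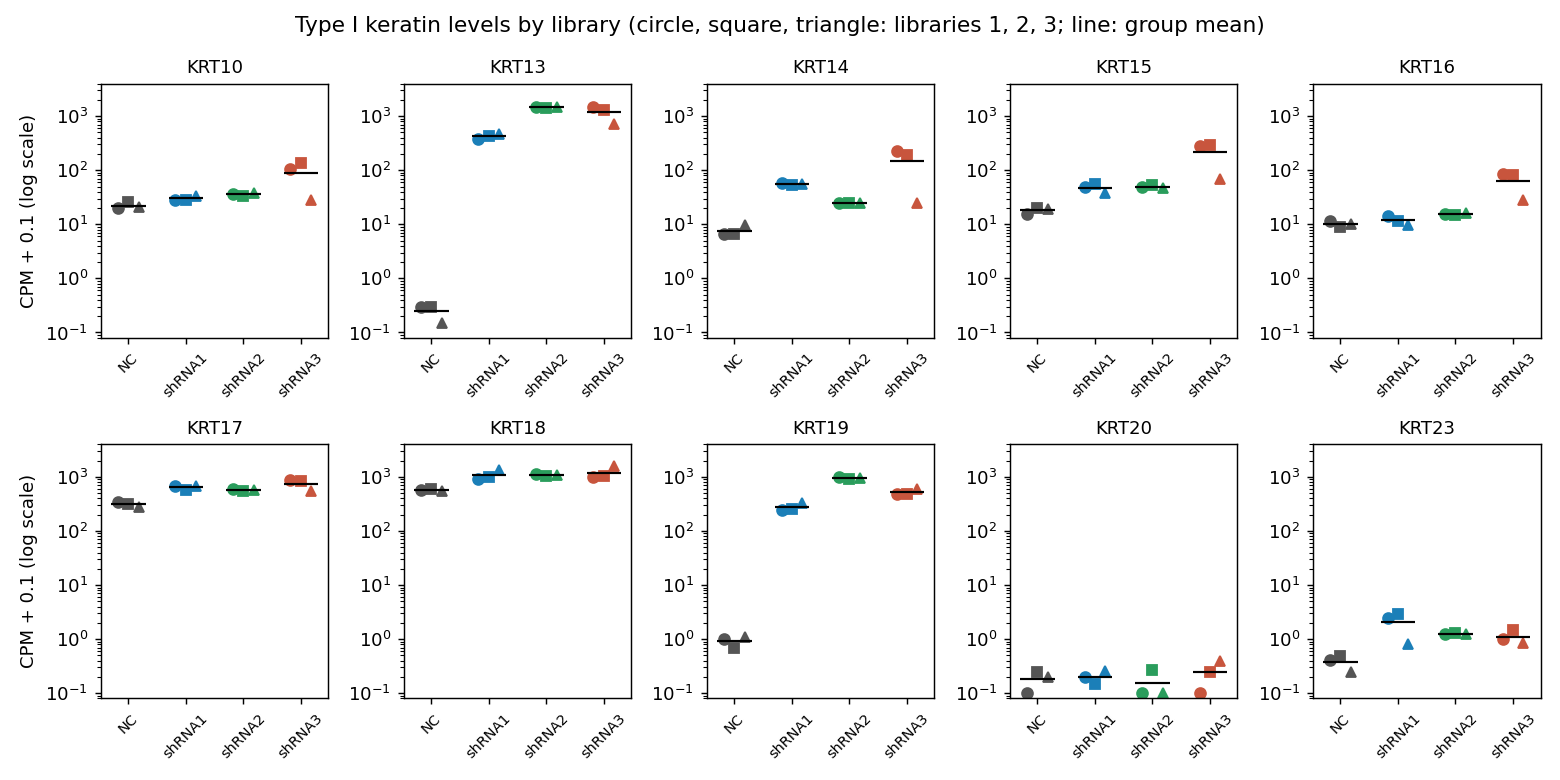
Level of each type I keratin in each library (CPM + 0.1, log axis) by group, with circles, squares and triangles for libraries 1, 2 and 3 and a line at the group mean. KRT13 and KRT19 were at or near 1 CPM or less in NC and above 240 CPM in every hairpin library, whereas KRT17 and KRT18 moved by about a factor of 2.

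Against NC, 7 of the 9 type I keratins tested were higher with shRNA1, 7 with shRNA2 and 9 with shRNA3, and 0 were lower with any hairpin, at an adjusted p under 0.05 (edgeR quasi-likelihood F test, two-sided, Benjamini-Hochberg over 17532 tested genes). The background was large: 57.4% of all tested genes passed in either direction with shRNA1 (26.8% higher, 30.6% lower), 53.0% with shRNA2 (24.6% higher, 28.4% lower) and 53.9% with shRNA3 (26.4% higher, 27.6% lower). KRT13, KRT14, KRT15, KRT17, KRT18, KRT19 and KRT23 were higher with all 3 hairpins, as were 16.0% of all tested genes, and 0 members were lower with all 3, as were 19.7%. KRT20 was too low for the count filter. KRT13 and KRT23 passed it only through their hairpin libraries and so had to differ, and the other 7 tested genes gave 5, 5 and 7 calls. The median log2 fold change of these 7 was 1.05, 0.91 and 2.65 (1.38, 1.45 and 2.65 over all 9 tested), and that of all tested genes −0.02, −0.05 and −0.03. In shRNA3 with library 3 as its only library, 7 of 9 were higher, where 56.9% of all tested genes passed in either direction. That fit tested 19093 genes rather than 17532, because the count filter depends on the smallest group. Scaling by library totals instead of TMM moved the median of all tested genes by −0.09, −0.13 and −0.32, and the counts of type I keratins stayed at 7, 7 and 9. The 3 comparisons share the NC libraries, and in bulk RNA fewer cells of a type and less RNA per cell cannot be told apart.

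**Figure D3:**
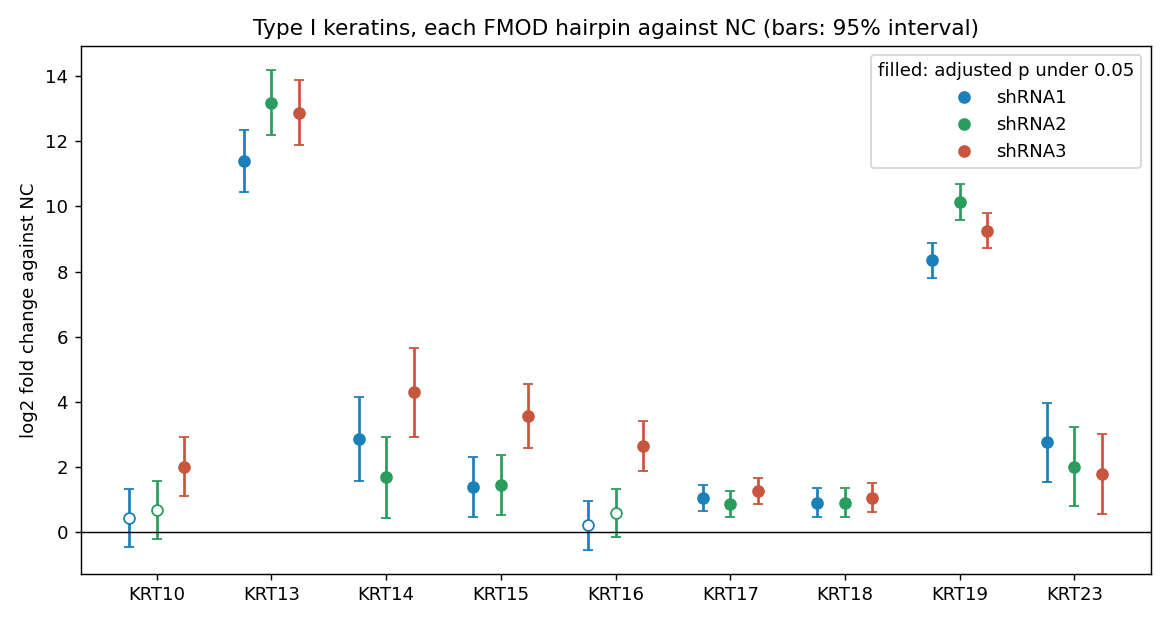
Log2 fold change of each tested type I keratin against NC (vertical axis, with 95% intervals) for shRNA1, shRNA2 and shRNA3. Filled points passed the adjusted threshold, open points did not: KRT10 and KRT16 are open for shRNA1 and shRNA2, and the other points lie above 0.

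The differentiation keratin of moist mucosa, KRT13, rose from near the detection limit to a level among the highest of the type I keratins. Its counts in NC were 4, 4 and 1, or 0.202, 0.197 and 0.0507 CPM. The levels were 380, 421 and 468 CPM in shRNA1, 1500, 1420 and 1460 CPM in shRNA2, and 1510, 1320 and 702 CPM in shRNA3. No hairpin library came near NC, and shRNA1 was the lowest of the hairpin groups. From pooled counts the ratio to NC was 2810 with shRNA1 (95% counting interval 1480 to 6140), 9710 with shRNA2 (5110 to 21200) and 7390 with shRNA3 (3900 to 16200). The fitted log2 fold changes were 11.39 (SE 0.44, adjusted p = 3.46e-08), 13.18 (SE 0.46, adjusted p = 1.73e-08) and 12.87 (SE 0.45, adjusted p = 2.29e-08) in edgeR's quasi-likelihood test. With library 3 as the only shRNA3 library the last was 12.16. KRT13 passed the count filter only through its hairpin libraries and so had to differ, so its p-values are no separate support for the rise.

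KRT10, the type I keratin of cornifying suprabasal cells, moved far less. It was at 19.6, 25.6 and 21.1 CPM in NC, 27.8, 28.6 and 33.9 CPM in shRNA1, 36.4, 33.3 and 37.3 CPM in shRNA2, and 107, 134 and 28.4 CPM in shRNA3. The hairpin libraries all lay above NC, and shRNA3 library 3 lay with shRNA1 rather than with shRNA3 libraries 1 and 2. Groups that do not overlap were common here: 74.3%, 79.6% and 57.5% of all tested genes had no overlap with NC, in either direction, for shRNA1, shRNA2 and shRNA3. The log2 fold change was 0.44 with shRNA1 (95% interval −0.44 to 1.33, adjusted p = 0.367) and 0.69 with shRNA2 (−0.2 to 1.57, adjusted p = 0.173), neither past the threshold in edgeR's test over all 12 libraries. Fitted on the 6 libraries of each comparison alone, both passed (log2 0.45, adjusted p = 0.021, and 0.69, adjusted p = 8.61e-06). With shRNA3 KRT10 rose by 2.02 (SE 0.42, adjusted p = 0.0017), but with library 3 as the only shRNA3 library the value was 0.39 (adjusted p = 0.0747), under the threshold.

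Of the basal keratins, the type I genes KRT14 and KRT15 rose with every hairpin, while their type II partner KRT5 fell, with values among the type II genes. KRT14, the main type I partner of KRT5, was at 6.51, 6.65 and 9.59 CPM in NC and at 57.9, 52.2 and 56.5 CPM in shRNA1. It was at 24.2, 24.2 and 25.1 CPM in shRNA2 and at 230, 192 and 25.1 CPM in shRNA3. Every hairpin library was above NC, and shRNA3 library 3 matched the shRNA2 libraries. KRT14 was 7.31-fold higher with shRNA1 (log2 2.87, SE 0.59, adjusted p = 0.00148), 3.23-fold with shRNA2 (1.69, SE 0.57, adjusted p = 0.0256) and 19.6-fold with shRNA3 (4.30, SE 0.62, adjusted p = 0.000155) in edgeR's test. With library 3 as the only shRNA3 library the log2 value was 1.76 (adjusted p = 4.63e-06). The shRNA2 call was lost without NC library 1 (adjusted p = 0.0799), NC library 2 (0.0803), shRNA2 library 1 (0.0501) or shRNA2 library 3 (0.0519), and with no filter on low counts (0.0736), with log2 values of 1.60 to 1.73.

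KRT15, a further basal keratin that is also known from epithelial stem cells, was at 15.6, 20.1 and 19.0 CPM in NC. Its levels were 49.6, 54.8 and 38.4 CPM in shRNA1, 49.7, 52.6 and 47.0 CPM in shRNA2, and 283, 298 and 67.4 CPM in shRNA3. The shRNA1 and shRNA2 libraries overlapped, and all hairpin libraries were above NC. The rise was 2.61-fold with shRNA1 (log2 1.38, SE 0.42, adjusted p = 0.014), 2.73-fold with shRNA2 (1.45, SE 0.42, adjusted p = 0.012) and 11.8-fold with shRNA3 (3.57, SE 0.45, adjusted p = 5.54e-05). With library 3 as the only shRNA3 library the log2 value was 1.92 (adjusted p = 1.5e-06). Without NC library 1 the shRNA1 value was 1.28 (adjusted p = 0.0522), past the threshold no longer.

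The keratins of wounded epithelium differed from each other. KRT17 was the second most abundant member in NC at 345, 311 and 281 CPM. It was at 677, 579 and 687 CPM in shRNA1, 586, 547 and 583 CPM in shRNA2, and 866, 841 and 540 CPM in shRNA3. It rose 2.07-fold (log2 1.05, SE 0.18, adjusted p = 0.000499), 1.83-fold (0.87, SE 0.18, adjusted p = 0.00181) and 2.40-fold (1.26, SE 0.18, adjusted p = 0.00016), the last at log2 0.82 (adjusted p = 0.000126) with library 3 as the only shRNA3 library. KRT16, by contrast, was at 11.4, 8.86 and 10.2 CPM in NC and at 14.3, 11.6 and 9.55 CPM in shRNA1, so those groups overlapped. It was at 15.6, 14.7 and 16.0 CPM in shRNA2 and at 83.4, 80.5 and 27.9 CPM in shRNA3, above NC without overlap. The log2 fold change was 0.22 with shRNA1 (95% interval −0.53 to 0.96, adjusted p = 0.608) and 0.60 with shRNA2 (−0.14 to 1.34, adjusted p = 0.158), neither past the threshold. With shRNA3 KRT16 rose 6.29-fold (log2 2.65, SE 0.35, adjusted p = 8.77e-05), and with library 3 as its only library the log2 value was 1.48 (adjusted p = 5.24e-05). Fitted on the 6 libraries of NC and shRNA2 alone, KRT16 passed (log2 0.60, adjusted p = 0.000287).

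The value for KRT16, and perhaps that for KRT14, depends on where reads of the KRT16 pseudogenes were counted. The table holds 6 pseudogenes named for KRT16, and their summed counts came to 19.3% of those of KRT16 in NC, 173% in shRNA1, 49.4% in shRNA2 and 39.8% in shRNA3. KRT16P6 made up most of this outside NC. Its counts were 11, 16 and 18 in NC, 234, 202 and 545 in shRNA1, 102, 85 and 76 in shRNA2, and 392, 348 and 66 in shRNA3. KRT16P6 shares 8.37% of the 50-base stretches of KRT14 and 0.502% of those of KRT16. When pseudogene counts were added to KRT16, the shRNA1 value became 1.42 (adjusted p = 0.00776), past the threshold. The counts of KRT16P6 were not added to KRT14 in any fit, and from which gene these reads came was not tested. Pseudogene counts came to 0.393% or less of those of KRT18 and 0.138% or less of those of KRT17.

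The simple epithelial keratins rose with each hairpin, KRT18 moderately and KRT19 from a low level. KRT18, the partner of KRT8, was at 575, 599 and 561 CPM in NC, 934, 994 and 1340 CPM in shRNA1, 1140, 1040 and 1090 CPM in shRNA2, and 978, 1050 and 1590 CPM in shRNA3. It was 1.88-fold higher with shRNA1 (log2 0.91, SE 0.20, adjusted p = 0.00252), 1.88-fold with shRNA2 (0.91, SE 0.20, adjusted p = 0.00271) and 2.09-fold with shRNA3 (1.06, SE 0.20, adjusted p = 0.00105). Library 3 as the only shRNA3 library gave a last log2 value of 1.49 (adjusted p = 3.63e-06). The hairpin groups overlapped, and none of their libraries reached down to NC. The highest of the 12 values was that of shRNA3 library 3, the library that was lowest within shRNA3 for KRT10, KRT13, KRT14, KRT15, KRT16, KRT17 and KRT23.

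KRT19, the shortest of the keratins and known for lacking most of the tail domain, had 12 to 20 counts in the NC libraries (0.909, 0.591 and 1.01 CPM). It was at 247, 257 and 323 CPM in shRNA1, 984, 918 and 960 CPM in shRNA2, and 478, 493 and 587 CPM in shRNA3. The 3 hairpin groups did not overlap with NC or with each other, with shRNA2 highest and shRNA1 lowest. Of all tested genes, 49.5% had no overlap between shRNA1 and shRNA2, 30.2% between shRNA1 and shRNA3 and 27.1% between shRNA2 and shRNA3. From pooled counts the ratio to NC was 329 with shRNA1 (95% counting interval 249 to 443), 1140 with shRNA2 (865 to 1540) and 632 with shRNA3 (479 to 852). The adjusted p-values in edgeR's test were 1.08e-08, 2.32e-09 and 4.7e-09. KRT19 shared few stretches with other genes and its counts were whole, and with library 3 as the only shRNA3 library its log2 fold change was 9.47 against 9.26 with all 3.

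KRT23 and KRT20 stayed at low levels. KRT23 passed the count filter only through its hairpin libraries and so had to differ, so its p-values are no separate support for a rise. KRT23 was at 0.303, 0.394 and 0.152 CPM in NC, 2.34, 2.81 and 0.723 CPM in shRNA1, 1.17, 1.18 and 1.16 CPM in shRNA2, and 0.89, 1.38 and 0.745 CPM in shRNA3. From pooled counts the ratio to NC was 6.97 (95% counting interval 4.17 to 12.4), 4.13 (2.38 to 7.53) and 3.42 (1.92 to 6.36), and the adjusted p-values in edgeR's test were 0.00123, 0.00922 and 0.0181. The shRNA3 call was lost without NC library 3 (adjusted p = 0.0708), without shRNA3 library 2 (0.0566) and with library 3 as the only shRNA3 library (0.125), with log2 values of 1.49, 1.55 and 1.40 against 1.79. KRT20 had 0 to 6 counts in any library, at most 0.298 CPM, and was not tested, so a difference was not detectable at this depth.

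The hairpins differed among themselves mainly in KRT13 and KRT19 and in a set that was highest in shRNA3. Between shRNA1 and shRNA2, 2 of 9 tested members passed, where 12.3% of all tested genes did (5.78% higher and 6.53% lower in shRNA1). KRT13 was 3.45-fold lower in shRNA1 (log2 −1.79, SE 0.26, adjusted p = 0.00301) and KRT19 3.46-fold lower (−1.79, SE 0.17, adjusted p = 0.000306). The other 7 did not pass. For KRT18 the difference was 0 with a 95% interval of −0.44 to 0.44, and for KRT17 it was 0.18 (−0.22 to 0.58). For KRT15 it was −0.06 (−0.95 to 0.83), a wider interval that leaves room for nearly a factor of 2 either way. KRT14 was higher in shRNA1 by 1.18 (−0.02 to 2.38, adjusted p = 0.187), and passed when only those 6 libraries were fitted (adjusted p = 0.000206).

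Between shRNA1 and shRNA3, 5 of 9 members passed, all lower in shRNA1, where 30.0% of all tested genes passed (11.9% higher and 18.1% lower in shRNA1). These were KRT16 (log2 −2.44, adjusted p = 0.00282), KRT15 (−2.18, adjusted p = 0.00679), KRT10 (−1.57, adjusted p = 0.0181), KRT13 (−1.48, adjusted p = 0.00513) and KRT19 (−0.91, adjusted p = 0.00583). Between shRNA2 and shRNA3, 4 of 9 passed, where 8.34% of all tested genes did (1.91% higher and 6.43% lower in shRNA2). KRT14 (−2.60, adjusted p = 0.0315), KRT15 (−2.12, adjusted p = 0.0272) and KRT16 (−2.05, adjusted p = 0.0245) were lower in shRNA2, and KRT19 was 1.84-fold higher (0.88, adjusted p = 0.0269). These p-values are from edgeR's quasi-likelihood test over all 12 libraries, and fitted on the 6 libraries of each pair alone 0 members passed in either comparison, with 5 of 9 under an unadjusted p of 0.05 in each. Leaving out any shRNA2 library, shRNA3 library 1 or shRNA3 library 2 took the count of shRNA2 against shRNA3 to 0, and leaving out shRNA3 library 3 took it to 6. The KRT10 call of shRNA1 against shRNA3 was lost without shRNA1 library 1 (adjusted p = 0.0657), shRNA1 library 2 (0.0668), shRNA3 library 1 (0.0593) or shRNA3 library 2 (0.073).

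The split within shRNA3 ran through the same genes. The mean of libraries 1 and 2 exceeded library 3 by 8.40-fold for KRT14, 4.31-fold for KRT15, 4.23-fold for KRT10, 2.94-fold for KRT16 and 2.02-fold for KRT13. For KRT17 the ratio was 1.58 and for KRT23 1.53, while for KRT19 it was 0.827 and for KRT18 0.637. Library 3 lay within the range of the shRNA1 and shRNA2 libraries for KRT10, KRT13, KRT14, KRT19 and KRT23. With library 3 as the only shRNA3 library, the shRNA1 minus shRNA3 difference turned for KRT10 (0.07, adjusted p = 0.871) and for KRT14 (1.13, adjusted p = 0.00603, against −1.42 and adjusted p = 0.0678 with all libraries). It fell under the threshold for KRT15 (−0.52, adjusted p = 0.107), and KRT13, KRT16 and KRT19 stayed past it (−0.75, −1.25 and −1.11). In the shRNA2 comparison KRT14 was then at −0.05 (adjusted p = 0.95), KRT15 at −0.45 (adjusted p = 0.248), KRT16 at −0.87 (adjusted p = 0.0643) and KRT19 at 0.69 (adjusted p = 0.0597), and KRT13 alone passed, higher in shRNA2 by 1.04 (adjusted p = 0.00791).

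**Figure D4:**
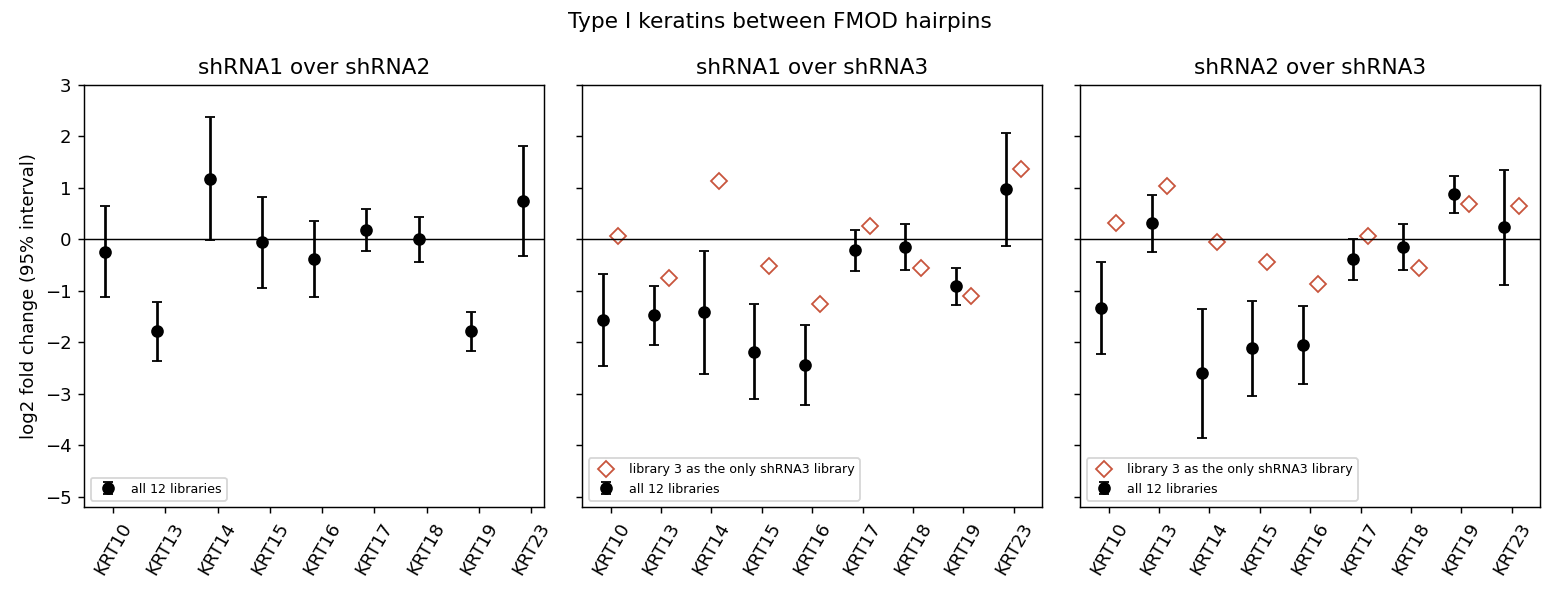
Log2 fold change of each tested type I keratin between pairs of FMOD hairpins (vertical axis), with all 12 libraries (black, 95% intervals) and with library 3 as the only shRNA3 library (open diamonds). The diamonds for KRT10, KRT14 and KRT15 lie far from the black points in both comparisons with shRNA3, and those for KRT19 lie close to them.

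The type II genes did not follow as 1 group. Of 20 listed type II keratins, 11 were tested, with 5 higher and 3 lower with shRNA1, 7 and 2 with shRNA2, and 6 and 2 with shRNA3. In either direction that is 72.7%, 81.8% and 72.7% of them, against 57.4%, 53.0% and 53.9% of all tested genes. KRT3, KRT4 and KRT75 passed the count filter only through hairpin libraries, with at most 5, 1 and 3 counts in NC. They had to differ from NC in some hairpin libraries, though not with each hairpin. The calls include KRT3 and KRT4 as higher with every hairpin and KRT75 with shRNA2 and shRNA3. With shRNA1 KRT75 overlapped NC and was not called (log2 1.97, adjusted p = 0.185, edgeR). KRT78, called with shRNA2 alone, also needed hairpin libraries to pass (8 to 22 counts in NC). KRT5, the basal partner of KRT14 and KRT15, fell from 1010 CPM ± 42.4 (SD, n = 3) in NC to 21.4 ± 6.71, 80.2 ± 2.47 and 74.9 ± 22.0 CPM, which is 47.1-, 12.6- and 13.5-fold lower (adjusted p = 1.76e-07, 1.08e-06 and 9.91e-07, edgeR). KRT8, the partner of KRT18, rose from 871 ± 40.1 to 2340 ± 294, 2900 ± 108 and 2450 ± 468 CPM. KRT7, found with KRT19 in simple epithelia, rose from 13.3 ± 2.79 to 1880 ± 325, 2180 ± 82.4 and 1220 ± 771 CPM, where the shRNA3 libraries were at 729, 826 and 2110 CPM and library 3 alone gave a 162-fold rise against 91.6-fold with all 3. KRT6A, found with KRT16 and KRT17, rose 3.07-, 4.64- and 2.29-fold, KRT80 fell 1.56-, 1.72- and 1.83-fold, and KRT6C, at 4.06 CPM in NC, did not pass with any hairpin. Of the partners of the suprabasal members, KRT4 had 0 or 1 counts in NC and reached means of 1.17, 5.87 and 1.68 CPM, far under KRT13, and KRT1 was at 0 counts in every NC and shRNA1 library.

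The counts of type I and type II partners therefore stood in other proportions in the hairpin cells. The ratio of KRT14 to KRT5 counts was 0.00757 ± 0.00205 in NC (SD, n = 3), 2.75 ± 0.781 in shRNA1, 0.306 ± 0.01 in shRNA2 and 2.72, 2.12 and 0.506 in the shRNA3 libraries. KRT14 was the minor of the pair in every NC and shRNA2 library and in shRNA3 library 3, and the major in the others. The ratio of KRT18 to KRT8 went from 0.664 ± 0.0103 to 0.462 ± 0.0404, 0.375 ± 0.00358 and 0.489 ± 0.0416, below NC in all 9 hairpin libraries although both genes rose. KRT8 overlaps KRT18 on the opposite strand and shares 21.5% of its 50-base stretches, so reads of this pair may not be told apart. The ratio of KRT19 to KRT7 went from 0.0647 ± 0.0234 to 0.147 ± 0.00453, 0.439 ± 0.00155 and 0.51 ± 0.203. The 10 type I genes over the 20 type II genes came to 0.397 ± 0.00828 in NC, 0.541 ± 0.0177 in shRNA1, 0.72 ± 0.00131 in shRNA2 and 1.33, 1.27 and 0.632 in shRNA3, all above NC. That last ratio leaves out KRT81, a hair type II keratin outside the list that was looked at after its values were seen (4.97 CPM in NC and 1470, 1360 and 2250 CPM in the hairpin groups). With KRT81 the ratio was 0.396 ± 0.00837, 0.413 ± 0.00989, 0.584 ± 0.000906 and 0.659 ± 0.143. These are ratios of counts not scaled to length, and no test was run on them.

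**Figure D5:**
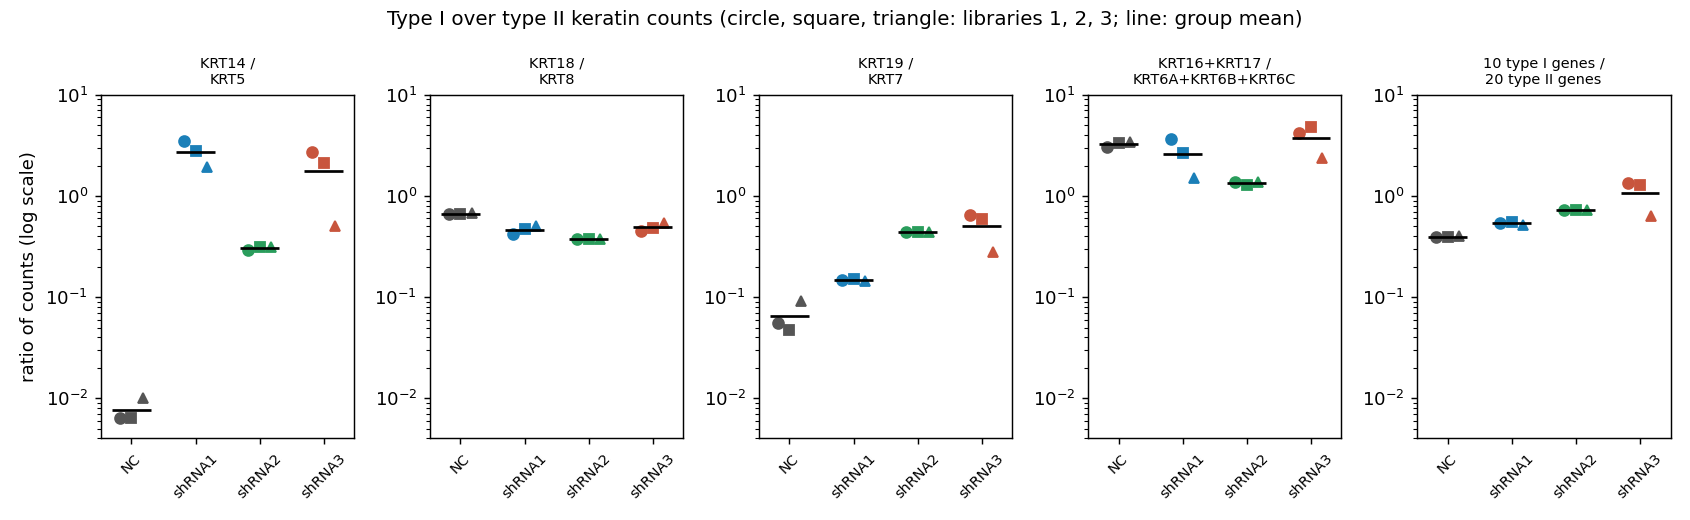
Ratio of type I to type II keratin counts (log axis) in each library by group, for 4 known pairings and for the 10 type I over the 20 type II genes, with a line at the group mean. KRT14 over KRT5 spans from under 0.01 in NC to above 1 in shRNA1 and in shRNA3 libraries 1 and 2, whereas KRT18 over KRT8 stays between 0.372 and 0.676.

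Other genes of the filament system moved in both directions. Of 18 further type I keratins 2 were tested, KRT34 and KRT9, and against NC 1 call was made: KRT34, a hair keratin, was higher with shRNA1 (1.17 to 4.41 CPM, log2 1.91, adjusted p = 0.0181, edgeR). Between hairpins KRT34 was higher in shRNA1 than in shRNA2 (2.40, adjusted p = 0.0304) and KRT9 higher in shRNA1 than in shRNA3 (1.64, adjusted p = 0.047). KRT9 was at only 0.605 and 0.189 CPM in these groups, with 2 to 4 counts in the shRNA3 libraries, near the limit of 3 counts. KRT9 passed the count filter only through shRNA1 and shRNA2 libraries (3 to 7 counts in NC), so its p-value is no separate support for a difference. Fitted on the libraries of shRNA1 and shRNA3 alone, no gene passed. Of 13 other intermediate filament genes, 11 were tested, with 4 higher and 3 lower, 6 and 3, and 5 and 2 for shRNA1, shRNA2 and shRNA3, or 63.6%, 81.8% and 63.6% called. Among those called with every hairpin, DES passed the count filter only through hairpin libraries (4 to 5 counts in NC). NEFL and NEFM passed it only through NC (0 counts elsewhere), so these genes had to differ. GFAP, called lower with shRNA2 alone, also passed it only through NC (at most 10 counts elsewhere). DES was 22.2-fold higher with shRNA3, against 12-fold with library 3 alone. VIM, the filament of mesenchymal cells, rose from 3.26 CPM ± 0.198 to 445 ± 144, 609 ± 8.65 and 694 ± 187 CPM. The lamin genes LMNA and LMNB1 rose with every hairpin, LMNA to 1200, 1430 and 2890 CPM from 582. In shRNA3 LMNA was at 3770, 3690 and 1220 CPM, and library 3 alone gave a log2 value of 1.10 (adjusted p = 3.28e-05) against 2.31. Of 14 genes for proteins that anchor or bind keratin filaments, 14 were tested, with 6 higher and 2 lower, 7 and 2, and 7 and 1. The shares called, 57.1%, 64.3% and 57.1%, lay near those of all tested genes (57.4%, 53.0% and 53.9%). FLG, called higher with shRNA2, needed hairpin libraries to pass the count filter (5 to 10 counts in NC). With shRNA3 FLG was 1.42-fold higher and not called, against 3.62-fold with library 3 alone. PLEC and DSP, linkers of keratin to hemidesmosomes and desmosomes, rose with every hairpin (PLEC 3.87-, 2.35- and 2.78-fold, DSP 2.80-, 3.39- and 2.32-fold), as did the desmosomal PKP3. The desmosomal PKP1, outside the 6 most abundant and named after its values were seen, fell 50.6-, 29.6- and 4.89-fold (10.7-fold with shRNA3 library 3 alone), and PPL, named likewise, fell 2.77- and 1.58-fold with shRNA1 and shRNA2. JUP was called with shRNA3 (log2 1.62, adjusted p = 0.00131) and not with shRNA1 (−0.31) or shRNA2 (0.53). Its shRNA3 libraries were at 2060, 1920 and 685 CPM, library 3 alone gave 0.47 (adjusted p = 0.00992), and shRNA2 against shRNA3 did not pass (adjusted p = 0.0546).

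Of 12 transcription factor genes known to act on keratin genes, 3 were higher and 3 lower with shRNA1, 3 and 5 with shRNA2, and 7 and 4 with shRNA3, or 5 and 4 with library 3 as its only library. In either direction that is 50%, 66.7% and 91.7%, against 57.4%, 53.0% and 53.9% of all tested genes. GRHL3 passed the count filter only through hairpin libraries (2 to 6 counts in NC), and SOX2 needed them to pass (9 to 10 counts in NC). GRHL2 needed NC to pass it (699 to 725 counts there, at most 17 elsewhere), so GRHL2 and GRHL3 had to differ. SOX2 was called higher with shRNA2 and shRNA3 and not with shRNA1, and those calls are no separate support for a rise. With shRNA3 SOX2 was 3.62-fold higher and GRHL2 106-fold lower, against 7.75- and 41-fold with library 3 alone. KLF5 rose from 55.9 CPM ± 4.79 to 223 ± 25.1, 229 ± 6.64 and 264 ± 26.4 CPM. STAT3 fell by 0.81, by 1.33 and by 0.52 on the log2 scale (adjusted p = 0.00531, 0.000247 and 0.0491, edgeR), with a log2 value of −1.09 for shRNA3 library 3 alone (adjusted p = 6.37e-05). TP63, the master regulator of stratified epithelium, was at 165 CPM in NC, 134 in shRNA1, 83.0 in shRNA2 and 80.6 in shRNA3, with adjusted p = 0.326, 0.00614 and 0.00483. The TP63 value for shRNA3 was −1.03 on the log2 scale, and −0.38 with library 3 alone (adjusted p = 0.0155). FOSL1 and JUN, members of the AP-1 family, were spread widely within shRNA3, from 91.6 to 443 CPM and from 82.1 to 422 CPM, and JUN passed with shRNA2 (log2 −1.78, adjusted p = 0.0069) and not with shRNA1 (adjusted p = 0.251) or shRNA3 (0.162). With shRNA3 library 3 alone JUN was at −1.06 (adjusted p = 0.0036, against 0.78), and FOSL1 at −0.09 (adjusted p = 0.754, against 1.71 and adjusted p = 0.00697).

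Markers of cell types were summed beside these results, and their part in them was not tested. The 6 epithelial markers, which include KRT5 and KRT8, summed to 2830 to 3070 CPM in NC, 2780 to 3580 in shRNA1, 3970 to 4190 in shRNA2 and 4060 to 4810 in shRNA3. Within them EPCAM was present throughout (188 CPM in NC and 156, 271 and 356), and CDH1, the adhesion protein of epithelial cells, was lower in the hairpin groups (38.2 ± 2.87, 53.4 ± 2.35 and 66.1 ± 19.0 CPM) than in NC (323 ± 12.7). The 6 fibroblast markers summed to 56.7 to 59.6, 15.5 to 21.1, 44.2 to 48.2 and 32.6 to 86.6 CPM. COL1A1 made up most of this, at 41.7, 17.3, 44.6 and 65.9 CPM, and PDGFRB was at 10.7 CPM in NC and at 1.10 CPM or less elsewhere, with DCN at 0 in NC and shRNA2 and LUM at 0 in shRNA1 and shRNA3. The 4 leukocyte markers summed to 53.9 to 72.1, 43.8 to 96.4, 80.2 to 85.8 and 109 to 236 CPM, nearly all CD68, with PTPRC at 0 in NC and at most 0.436 CPM elsewhere. The 4 endothelial markers summed to 17.6 to 23.1, 3.88 to 5.88, 6.87 to 8.46 and 8.68 to 13.3 CPM, but moved in opposite directions. CDH5 was at 17.3 CPM in NC and 1.94, 2.53 and 1.35 in the hairpin groups, and VWF at 2.02 and 0.282, 0.341 and 0.525. PECAM1 was at 0.133 CPM in NC (2 to 4 counts) and 2.60, 4.76 and 8.74 in the hairpin groups, and KDR was near 0 throughout. The 3 melanocyte markers came to at most 9.04 CPM and the 3 Merkel cell markers, ATOH1, CHGA and SYP, to at most 1.31 CPM.

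The genes whose levels ran most alike those of each member were named by Pearson's r of log2 CPM over the 12 libraries, as a description. The 12 libraries are 4 groups of 3, so r also carries the differences between group means. KRT13 was closest to NR2F1 and TH (both r = 0.998) and KRT19 to PTGES (0.998) and FNDC10 (0.997). KRT15 was closest to SLC26A6 (0.995) and PRR13 (0.993), KRT16 to TMPRSS3 (0.990) and SYNGR3 (0.979), and KRT14 to HMGCS1 (0.989) and BHLHE40 (0.987). KRT10 was closest to VAMP8 (0.987) and UBB (0.984), KRT17 to RPL9 and SH3TC1 (both 0.988), KRT18 to PTPMT1 (0.974) and SLC12A3 (0.965), and KRT23 to TUBB2A and DDX24 (both 0.938). No gene was named for more than 1 member. Over the 9 hairpin libraries alone the values for KRT13 were 0.979 and 0.942 and those for KRT18 0.904 and 0.814, whereas those for KRT15 were 0.992 and 0.993. KRT15 was at 283 and 298 CPM in shRNA3 libraries 1 and 2 and at 67.4 CPM or less in the other hairpin libraries. Its r over the hairpin libraries therefore also carries that split.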

How the data were processed

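RNA was sequenced in 12 libraries of SCC-15 cells, 3 in each of 4 groups taken from the sample titles. The authors deposited 1 table of estimated counts for each gene, without scaling between libraries, in which 13.8% of values are not whole. Per the submitters' processing notes, HISAT2, HTSeq 0.11.2 and GRCh38 were used. Strand, the treatment of reads that fit several genes, the annotation and any filter are not given in the sources used here. Of the 61044 IDs, 60463 had a symbol.

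The deposited estimated counts were rounded and scaled by TMM (factors 0.771 to 1.11), and genes were kept by filterByExpr (minimum count 10, minimum total 15). The test was the two-sided quasi-likelihood F test of edgeR 4.0.16 under R 4.3.3, in 1 model of the 4 groups (8 residual degrees of freedom, common biological coefficient of variation 0.289), with Benjamini-Hochberg adjustment over all 17532 tested genes. The procedure was tested on simulated counts in which few genes differed, in a single group, with the same dispersion for every gene. That test does not cover changes as broad as those here or a split group such as shRNA3. The prior count for log2 CPM was 2. Counting intervals of ratios and t-based intervals of log2 fold changes are at 95%. Shared stretches, lengths and positions came from GENCODE release 29 on GRCh38. Promoter sequences are not shown, and protein sequences were not used here.

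The members, the lists of type II keratins, other type I keratins, other intermediate filament genes, filament anchors, transcription factors and cell type markers, and the tests were chosen with earlier results of these data known. All 10 members are named. Of each list the genes with the largest mean CPM were eligible to be named, up to 6, besides cell type markers, and for each tested member the 2 genes with the highest r. KRT4 and KRT1 are named as known partners, and KRT81, KRT10-AS1, PKP1 and PPL were chosen after their values were seen. KRT3, KRT75, KRT78, DES, GFAP, NEFL, NEFM, FLG, GRHL2, GRHL3 and SOX2 are named only for how they passed the count filter. Alternatives were DESeq2 size factors, the DESeq2 Wald test (DESeq2 1.42.0), no filter on low counts, only the libraries compared, a replicate block, pseudogene counts added, a log2 change of at least 1, each library left out, and library 3 as the only shRNA3 library. Scaling by library totals was added after seeing the data.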

Additional observations from a re-analysis of the deposited data

How the results depend on the processing

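Among single type I keratins, 288 of the values from leaving out 1 library kept their direction and side of the threshold, 31 lost a call and 5 gained one. Under the other alternatives 398 did so, 19 lost a call, 13 gained one and 2 reversed. Both reversals were shRNA1 against shRNA3 with library 3 as the only shRNA3 library, where KRT10 was at 0.07 and KRT14 at 1.13 on the log2 scale. The number of members called ranged over the left-out libraries from 6 to 7 for shRNA1 against NC, 6 to 7 for shRNA2, 8 to 9 for shRNA3, 2 to 2 for shRNA1 against shRNA2, 4 to 7 for shRNA1 against shRNA3 and 0 to 6 for shRNA2 against shRNA3. Fitted on the 6 libraries compared, 0 members passed for shRNA1 against shRNA3 and 0 for shRNA2 against shRNA3 (edgeR), with 5 of 9 at an unadjusted p under 0.05 in each, where DESeq2 on all 12 libraries called 6 and 5. With library 3 as the only shRNA3 library 1 member passed for shRNA2 against shRNA3. The cause of these changes was not tested.

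Replicate numbers come from titles alone, and deviations of libraries with the same number were uncorrelated (18 pairs with a mean r of −0.00434, where the 36 pairs of unlike numbers had 0.00186). With a replicate block the counts were 7, 7 and 9 against NC and 2, 5 and 3 between hairpins, and KRT14 of shRNA2 against shRNA3 lost its call (log2 −2.49, adjusted p = 0.0572, edgeR). Over all tested genes the count of shRNA2 against shRNA3, 1462, became 378 with the block, 596 with library totals, 911 with no filter, 244 with library 3 alone, 0 on the 6 libraries compared and 3793 in DESeq2. That of shRNA1 against shRNA2, 2158, ranged from 1420 with no filter to 7031 with library 3 alone, and that of shRNA1 against shRNA3, 5258, from 0 on the 6 libraries to 6762 in DESeq2. Requiring a log2 change of at least 1 left 6, 5 and 9 members against NC. Depth limits KRT20, at 0 to 6 counts, and the NC levels of KRT13 and KRT23.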
